A study of Mus musculus with 6 samples.

Results

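Transcripts of 10 genes of the cytosolic heat shock chaperone system were followed in mouse haematopoietic stem cells in which the leukaemia fusion ETV6-RUNX1 was or was not induced. The genes were chosen by symbol: Hspa1a, Hspa1b, Hspa8, Hsph1, Dnajb1, Dnaja1, Hsp90aa1, Hsp90ab1, Hspb1 and Hsf1. All 10 were found, each once, among the 55471 gene IDs of the deposited table. The sort kept cells without lineage markers or CD48 that carried Kit, Sca1 and CD150, taken from mice of the ETV6-RUNX1 genotype, and their total RNA was sequenced. The uninduced group (3 libraries) came from such mice without doxycycline, and the induced group (3 libraries) from such mice given doxycycline in food for 2 weeks. Both groups carried the inducible fusion. The promoter that drives it and the age of the mice are not given in the sources used here, and no doxycycline-treated mice without the fusion were analysed here, so the fusion and the drug cannot be told apart. The labels call the libraries replicates without saying that each is a separate mouse, so p-values measure the spread between these libraries, which may be technical.

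Heat shock chaperones keep proteins folded. HSP70 proteins such as HSC70, the product of Hspa8, bind unfolded stretches and use ATP to release them. J-domain proteins (Dnaja1, Dnajb1) deliver clients and start the ATP cycle, and HSP110 (Hsph1) exchanges the nucleotide. HSP90 (Hsp90aa1 and Hsp90ab1) takes over partly folded clients, many of them kinases and receptors. Hspb1 encodes a small heat shock protein that holds unfolded proteins. HSF1 is the transcription factor that raises the inducible genes of this set, Hspa1a, Hspa1b and Hspb1 above all, when unfolded proteins accumulate, by binding arrays of inverted GAA-type repeats called heat shock elements. Translation and division both load this system with newly made protein.

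The upstream sequences are shown for 5 of the members because heat shock elements are what the inducible genes are known for. RefSeq start sites (build GRCm38.p6) were matched for 6 members: Hspa1a, Hspa1b, Hspb1, Dnaja1, Hsph1 and Dnajb1. The letters GAANNTTC and TTCNNGAA, the core inverted pair of a heat shock element, each read the same on both strands. They were searched for from 250 bases before to 50 bases after each start. Of all 32851 such windows of 300 bases, 15.1% held at least 1 match and 1.96% held 2 or more. Sequences run 5′ to 3′ on the gene's strand, with matches in capitals. The first 4 are the 250 bases up to the start, at chr17:34972157-34972406 (minus strand) for Hspa1a, chr17:34959239-34959488 (minus strand) for Hspa1b, chr5:135887669-135887918 (plus strand) for Hspb1 and chr4:40722218-40722467 (plus strand) for Dnaja1. For Hsph1 a stretch of 50 bases around its upstream match is given, at chr5:149636348-149636397 (minus strand). Of these, 29 bases lie in an annotated untranslated region, since the gene's annotated span starts further upstream than both RefSeq starts used. The Dnaja1 stretch likewise lies inside that gene's GENCODE span, which begins at 40722150, with 0 bases in an annotated untranslated region.
Hspa1a: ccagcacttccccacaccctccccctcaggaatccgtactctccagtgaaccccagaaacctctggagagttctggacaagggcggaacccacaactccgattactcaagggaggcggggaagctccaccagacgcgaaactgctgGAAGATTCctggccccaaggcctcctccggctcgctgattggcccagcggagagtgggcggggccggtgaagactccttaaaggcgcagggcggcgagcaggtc
Hspa1b: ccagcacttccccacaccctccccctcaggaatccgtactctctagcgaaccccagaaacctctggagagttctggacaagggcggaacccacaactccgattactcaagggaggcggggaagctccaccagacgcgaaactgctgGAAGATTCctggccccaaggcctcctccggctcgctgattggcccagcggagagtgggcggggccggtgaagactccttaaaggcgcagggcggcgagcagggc
Hspb1: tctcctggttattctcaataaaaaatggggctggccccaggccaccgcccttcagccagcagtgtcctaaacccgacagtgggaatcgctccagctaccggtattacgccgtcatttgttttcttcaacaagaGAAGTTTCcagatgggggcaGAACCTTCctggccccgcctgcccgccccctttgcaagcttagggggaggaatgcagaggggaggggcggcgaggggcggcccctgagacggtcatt
Dnaja1: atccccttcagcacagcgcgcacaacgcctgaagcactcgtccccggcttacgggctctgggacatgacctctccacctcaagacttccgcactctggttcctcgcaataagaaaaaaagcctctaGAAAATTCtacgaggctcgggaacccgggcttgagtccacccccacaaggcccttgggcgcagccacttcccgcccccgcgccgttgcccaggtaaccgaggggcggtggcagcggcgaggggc
Hsph1: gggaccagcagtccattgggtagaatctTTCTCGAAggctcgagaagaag
The 250 upstream bases of Hspa1a and Hspa1b were identical at 247 positions, and both held the match GAAGATTC at position -104 from the start. Hspb1 held 2 matches, at -117 and -97. Dnaja1 held 1 match, at -124 from the first of its 3 starts, and the windows of its other 2 starts held 0. Hsph1 held 3 matches in each of its windows, of which the printed TTCTCGAA lay at -54 from one start and -33 from the other. No match was found in the Dnajb1 windows. These are letter matches only.

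Expression was given as TPM, each transcript's share of its library corrected for length, so levels can be compared between genes. TPM keeps no sequencing depth, and counting error could not be computed. Values were read on a pair of scales. On the deposited scale the median of all 13470 tested genes (those averaging 1 TPM or more across the 6 libraries) was -0.35 log2 units in the induced group, and nuclear protein-coding genes made up 29.8% ± 3.13 of TPM in the uninduced and 21.9% ± 1.35 in the induced libraries (SD, n = 3 each). The changes of the members are therefore also given after median-of-ratios scaling, which set the median of all genes to 0.0032. A gene was called when its adjusted p from limma, over all tested genes, was under 0.05. In bulk RNA, fewer cells of a type and less RNA per cell cannot be told apart.

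Hsp90ab1, Hspa8 and Hsp90aa1 were the most abundant members in the stem cells, and the inducible Hspa1a, Hspa1b and Hspb1 were at or near 0. Of the 10 members, 7 passed the filter on low values. On the deposited scale 4 of these 7 fell (Hsp90ab1, Hsp90aa1, Hsph1 and Dnaja1), and none rose (limma; at an unadjusted p under 0.05, 6 were lower and 0 higher). By comparison, 10.2% of all tested genes were called lower and 1.29% higher. The members were chosen with earlier results of these data known, so such comparisons are descriptions. After median-of-ratios scaling 1 of the 7, Hsp90ab1, fell and none rose (3 lower and 0 higher at an unadjusted p under 0.05), beside 3.1% of all tested genes called lower and 2.88% higher. The median change of the 7 was -0.75 on the deposited scale, beside -0.35 for all genes, and -0.34 on the scaled data, beside 0.0032. The groups did not overlap, with the induced libraries lower, for 6 of the 7 on the deposited scale (28.2% of all tested genes) and for 2 of the 7, Hsp90ab1 and Dnaja1, on the scaled data (14.3% of all tested genes).

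**Figure D1:**
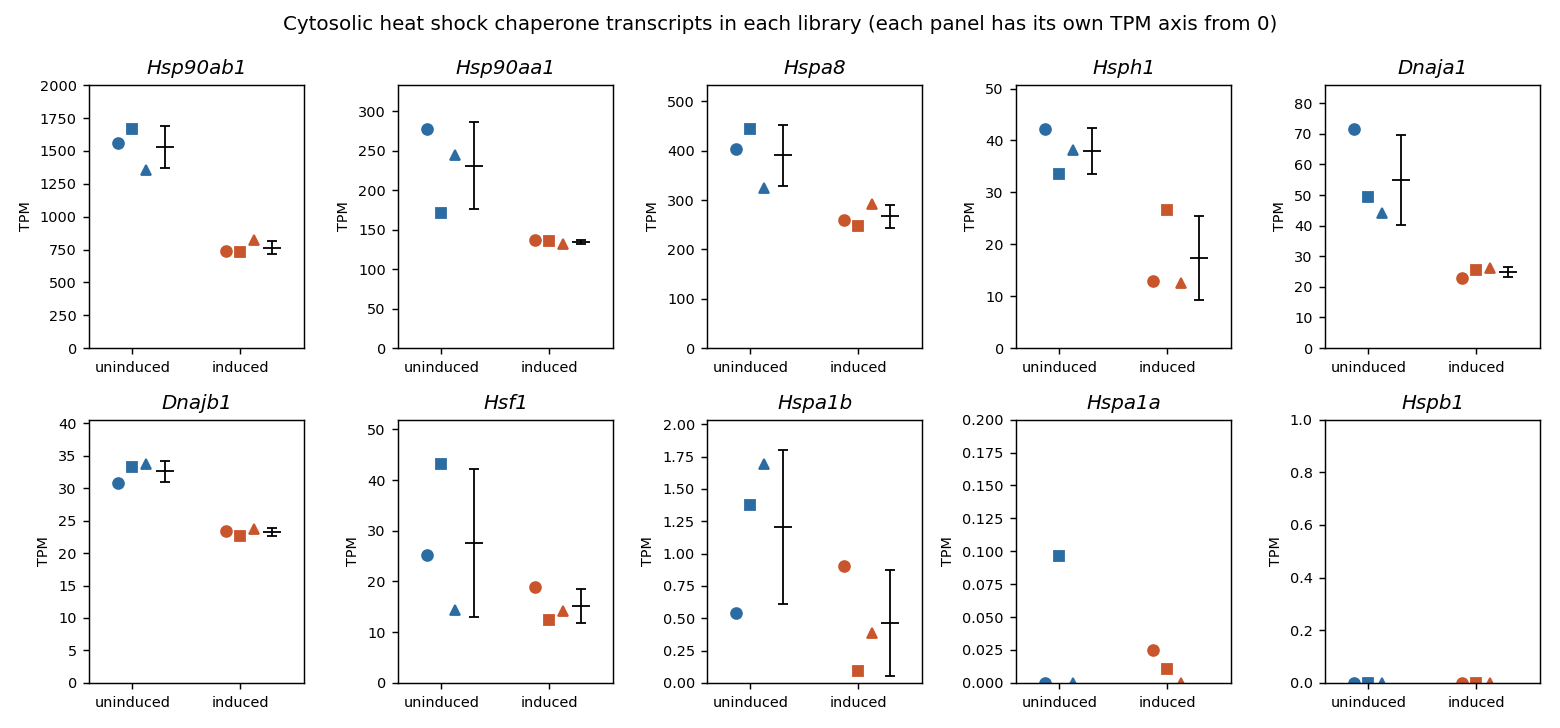
TPM (vertical axes, each from 0) of the 10 members in the uninduced (blue) and induced (orange) libraries; circles, squares and triangles are replicates 1, 2 and 3, and black bars give the mean ± SD (n = 3), left out for Hspa1a and Hspb1. Hsp90ab1 lay at 1352 TPM or more in every uninduced library and at 822 TPM or less in every induced one, while Hspb1 was listed at 0 throughout.

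Hsf1 itself (ENSMUSG00000022556, GRCm38 chr15:76477422-76501913, plus strand) was a moderately expressed transcript. It measured 25.2, 43.3 and 14.5 TPM in the uninduced libraries and 18.9, 12.3 and 14.1 TPM in the induced ones. The highest value came from uninduced replicate 2, and the groups overlapped. The log2 change was -0.72 (SE 0.36, adjusted p = 0.228), or -0.33 (adjusted p = 0.609) after scaling, and the 95% interval on the scaled data ran from -1.06 to 0.40. Without uninduced replicate 2 the changes were -0.34 and -0.012, and without uninduced replicate 3 they were -1.10 and -0.64.

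The inducible HSP70 genes Hspa1a and Hspa1b were barely detected in either group. They are neighbouring genes of 1 exon each on chromosome 17 (GRCm38 chr17:34969190-34972156 and chr17:34956436-34959238, both minus strand), whose coding sequences were 99.4% identical, so reads can be split between them. Hspa1b was at 0.541, 1.38 and 1.70 TPM in uninduced cells, against 0.904, 0.0944 and 0.382 TPM in induced cells. These values overlapped, and the gene fell under the filter. Without the filter its log2 change was -0.59 (adjusted p = 0.425). Hspa1a was listed at 0, 0.0964 and 0 TPM and at 0.0252, 0.0102 and 0 TPM. Hspb1 (chr5:135887919-135889563, plus strand), whose promoter held 2 of the element matches shown above, was listed at 0 in all 6 libraries. Its processed pseudogene Hsp25-ps1, with which it shared 355 of 831 stretches of 100 bases, read 0 TPM in each uninduced library, against 0.583, 1.36 and 0 TPM with induction. Together Hspa1a and Hspa1b reached 0.330% ± 0.195 of the Hspa8 level in the uninduced and 0.177% ± 0.162 in the induced libraries (SD, n = 3 each) (exact two-sided permutation p = 0.4), and 0.162% ± 0.0936 and 0.131% ± 0.117 with the rows of 8 processed pseudogene copies added to Hspa8 (p = 0.7 by the same test). The log2 difference of -1.19 without the copies ranged from -1.94 to -0.41 with each library left out.

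Hspa8 (ENSMUSG00000015656, chr9:40800984-40810087, plus strand), the constitutive HSP70, was the second most abundant member. It stood at 403, 444 and 323 TPM without induction and 261, 246 and 293 TPM with it, with means of 390 ± 61.5 and 267 ± 23.8 (SD, n = 3 each). All induced values were below all uninduced ones, but the log2 change of -0.54 (SE 0.16) missed the threshold (adjusted p = 0.0542). After scaling the groups overlapped and the change was -0.13 (95% interval -0.36 to 0.10, adjusted p = 0.509). The call on the deposited scale depended on the setting: it passed with a filter of 5 TPM (adjusted p = 0.0428), with array weights (0.0481) and without uninduced replicate 3 (0.0319).

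Hspa8 has near-identical copies in the genome, and the deposited values do not show how reads were divided among them. The copy Gm15459 (ENSMUSG00000100801, chr5:5781615-5783555, minus strand) is annotated as a processed pseudogene, an intronless copy made from an Hspa8 messenger RNA. Its sequence matched the Hspa8 coding sequence in 1933 of 1941 aligned positions (99.6%). The coding sequence had 1938 bases and the copy 1941, so some of the 8 other positions are gaps rather than differing bases. The copy held 1342 of the 2295 stretches of 100 bases in the Hspa8 transcript exactly. A stretch of 90 bases, the first with the most differences, is shown for both (bases 25 to 114 of the Hspa8 coding sequence and of the pseudogene, GENCODE M21 on GRCm38), with the differing base in capitals.
Hspa8: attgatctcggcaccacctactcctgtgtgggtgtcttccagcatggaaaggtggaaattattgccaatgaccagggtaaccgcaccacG
Gm15459: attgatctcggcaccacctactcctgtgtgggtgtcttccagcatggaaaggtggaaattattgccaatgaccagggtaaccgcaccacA
The lines differ at 1 base. Gm15459 was chosen for description after its values were seen.

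The Gm15459 row stood at 377, 394 and 312 TPM in the uninduced libraries, close to Hspa8 itself, and at 72.0, 66.0 and 69.8 TPM in the induced ones. Every induced value was far below every uninduced one. The log2 change was -2.36 (SE 0.15, adjusted p = 7.56e-05), and -1.95 after scaling (adjusted p = 8.69e-05). Relative to Hspa8 in the same library, Gm15459 was at 92.9% ± 3.97 in uninduced and 26.1% ± 2.01 in induced cells (SD, n = 3 each), with the groups apart (p = 0.1 by exact permutation, two-sided, and no smaller p is possible with 3 against 3). Of the 1295 processed pseudogenes tested, 118 (9.11%) were called lower on the deposited scale and 36 (2.78%) after scaling. A lincRNA, Gm26825, is annotated over the same place on the opposite strand and was not analysed here, and whether the counting used strand is not given in the sources used here.

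When the rows of all 8 processed pseudogenes sharing a 100-base stretch with Hspa8 were added to it, a choice made after seeing the data, the Hspa8 sum was 791 ± 108 TPM without induction and 356 ± 24.5 TPM with it (SD, n = 3 each). That sum fell by 1.14 log2 units (adjusted p = 0.00231), and by 0.73 after scaling (adjusted p = 0.00323). Whether reads from Hspa8 transcripts were counted in the Gm15459 row was not tested.

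**Figure D2:**
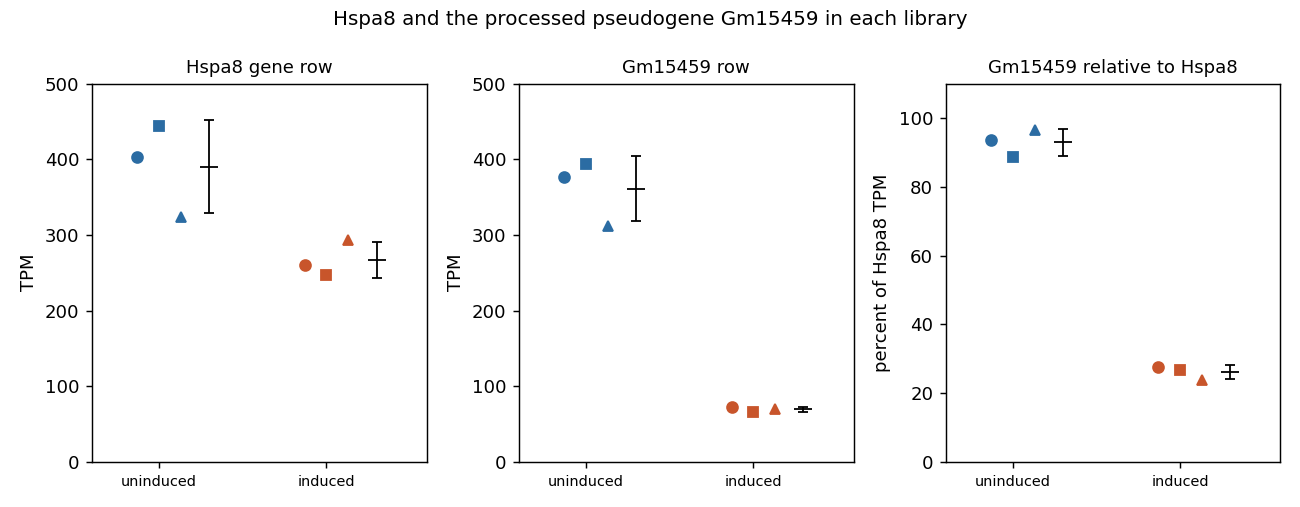
TPM of Hspa8 (left) and of its processed pseudogene Gm15459 (middle), and Gm15459 as a percent of Hspa8 (right), in the 3 uninduced (blue) and 3 induced (orange) libraries; symbols are replicates 1 to 3 and bars the mean ± SD. The pseudogene row was at 88.7% to 96.6% of Hspa8 in the uninduced libraries and at 23.8% to 27.6% in the induced ones.

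Hsph1 (ENSMUSG00000029657, chr5:149614287-149636376, minus strand), the HSP110 exchange factor, had the lowest point estimate of the 7 on both scales. It was at 42.2, 33.5 and 38.1 TPM in uninduced cells, against 12.9, 26.6 and 12.6 TPM in induced cells. Induced replicate 2 was about midway between the groups. The log2 change of -1.16 (SE 0.29) passed on the deposited scale (adjusted p = 0.0335) and missed after scaling (-0.77, adjusted p = 0.209). The call remained without induced replicate 2 (-1.50, adjusted p = 0.0237) and was lost when any other library was left out (adjusted p from 0.0812 to 0.116), with no variance trend (0.0828) or with no filter on low TPM (0.109). None of its 100-base stretches was shared with another gene. In the same libraries the Hsph1 level was 9.93% ± 2.18 of Hspa8 in the uninduced and 6.69% ± 3.59 in the induced group (SD, n = 3 each, exact two-sided permutation p = 0.3), and 4.88% ± 0.967 and 4.99% ± 2.65 with the Hspa8 copies (p = 0.8 by the same test). The log2 difference of -0.67 without the copies ranged from -1.08 to -0.41 with each library left out. Of 5 tested HSP70 and HSP110 relatives, 1 fell and none rose on the deposited scale and none was called after scaling (1 lower and 1 higher at an unadjusted p under 0.05). The share called lower among all tested genes was 10.2% and 3.1%. That gene, Hspa4, for another HSP110 protein, fell from 63.6 ± 10.2 to 31.5 ± 1.34 TPM (log2 change -0.98, adjusted p = 0.0121), and missed after scaling (-0.58, adjusted p = 0.0574).

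The J-domain members Dnaja1 and Dnajb1 deliver clients to HSP70. Dnaja1 (ENSMUSG00000028410, chr4:40722150-40737149, plus strand) was at 71.6, 49.3 and 44.0 TPM without induction and 22.9, 25.4 and 26.2 TPM with it. The groups were apart on both scales. Its log2 change was -1.09 (SE 0.22, adjusted p = 0.0153) on the deposited scale and -0.69 (95% interval -1.15 to -0.23, adjusted p = 0.0852) after scaling. The call on the deposited scale was lost without uninduced replicate 1 (-0.88, adjusted p = 0.0502), induced replicate 1 (0.0595) or induced replicate 2 (0.0596). Dnajb1 (ENSMUSG00000005483, chr8:83608193-83612653, plus strand) was at 30.8, 33.3 and 33.8 TPM and at 23.4, 22.6 and 23.7 TPM. These groups were narrow and apart on the deposited scale and overlapped after scaling. Its log2 change of -0.47 missed the threshold (SE 0.19, adjusted p = 0.142), as did -0.08 after scaling (adjusted p = 0.855).

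The ratio of Dnajb1 to Dnaja1 within a library does not depend on the scale. It was 43.0%, 67.5% and 76.8% in the uninduced libraries and 102%, 89.0% and 90.8% in the induced ones. The induced values were all higher, with a log2 difference of 0.63 and p = 0.1 by exact two-sided permutation (0.3 adjusted over the 6 ratios tested). Without uninduced replicate 1, which had the lowest ratio, the difference was 0.38, and with the Dnaja1 copies added it was 0.46. Of the Dnaja1 stretches of 100 bases, 24.0% were shared with other genes, among them the overlapping gene Smu1 on the opposite strand and 3 pseudogenes. Smu1, a splicing factor gene, was at 55.9, 52.3 and 49.7 TPM without induction and 23.8, 28.6 and 40.4 TPM with it. With the pseudogenes added, Dnaja1 changed by -0.93 (adjusted p = 0.0170), or -0.53 after scaling (adjusted p = 0.0950).

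Of 15 further J-domain genes tested, 2 fell on the deposited scale, a share near the 10.2% of all genes called lower, and none rose. None was called after scaling (limma; 2 lower and 0 higher at an unadjusted p under 0.05). Dnajc9, a J-domain protein that also chaperones histones, fell from 51.8 ± 1.38 to 23.6 ± 8.53 TPM (log2 change -1.16, adjusted p = 0.0201, and -0.77 after scaling, adjusted p = 0.107). Dnajc21, which acts in ribosome assembly, fell from 23.4 ± 0.940 to 12.2 ± 1.75 TPM (log2 change -0.89, adjusted p = 0.0338, and -0.50 after scaling, adjusted p = 0.201). Of 10 exchange factors and partners of HSP70, 1 fell on the deposited scale, again near the share over all genes, and none after scaling (0 at an unadjusted p under 0.05). This was St13, the HSP70-interacting protein, at 69.8 ± 8.64 and 43.3 ± 2.33 TPM (log2 change -0.67, adjusted p = 0.0389, and -0.27 after scaling, adjusted p = 0.298).

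Hsp90ab1 (ENSMUSG00000023944, chr17:45567775-45573271, minus strand), the constitutive cytosolic HSP90, was the most abundant member. It was at 1564, 1669 and 1352 TPM in uninduced cells, against 741, 728 and 822 TPM in induced cells. The groups were far apart, with means of 1528 ± 161 and 764 ± 50.8 (SD, n = 3 each). The log2 change was -0.996 (SE 0.13, adjusted p = 0.00263). After scaling the libraries read 1303, 1312 and 1278 against 834, 883 and 872 scaled TPM, which tightened both groups. The change was then -0.59 (SE 0.08, 95% interval -0.77 to -0.41, adjusted p = 0.00483). It was called under every alternative that was run. None of its 100-base stretches was shared with another gene.

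Hsp90aa1 (ENSMUSG00000021270, chr12:110690605-110702728, minus strand), the more stress-inducible HSP90, stood at 278, 171 and 245 TPM without induction and 136, 136 and 132 TPM with it. Uninduced replicate 2 was the nearest to the induced group, whose 3 values were almost the same. The log2 change of -0.75 (SE 0.19) passed on the deposited scale (adjusted p = 0.0327) and missed after scaling (-0.34, 95% interval -0.81 to 0.13, adjusted p = 0.390). The call on the deposited scale remained without uninduced replicate 2 (-0.95, adjusted p = 0.0191) and was lost without any other library (adjusted p from 0.0829 to 0.106), with no variance trend (0.127) or with no filter on low TPM (0.0974). On the scaled data it depended on that library: without uninduced replicate 2 the change was -0.60 (adjusted p = 0.0470). Hsp90aa1 also has pseudogene copies, which shared 47.5% of its 100-base stretches. The copy Gm12346 fell from 62.9 ± 11.5 to 22.8 ± 1.13 TPM (log2 change -1.41, adjusted p = 0.00405, and -1.01 after scaling, adjusted p = 0.0126). With its 3 copies added, Hsp90aa1 changed by -0.91 (adjusted p = 0.00625), or -0.51 after scaling (adjusted p = 0.103).

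The ratio of Hsp90aa1 to Hsp90ab1 was 17.8%, 10.2% and 18.1% in the uninduced and 18.4%, 18.6% and 16.02% in the induced libraries. Apart from uninduced replicate 2 the ratio lay between 16.02% and 18.6% throughout, and the groups overlapped (exact two-sided permutation p = 0.5). Both HSP90 transcripts together were 455% ± 39.9 of Hspa8 in the uninduced and 338% ± 12.5 in the induced libraries (SD, n = 3 each). Those groups were apart, with a log2 difference of -0.43 (exact two-sided permutation p = 0.1, adjusted p = 0.3), on Hspa8 values without the copies. With the copies added to Hspa8 alone the direction turned: the ratio was 224% ± 14.4 in the uninduced and 252% ± 7.84 in the induced libraries, apart with the induced values higher (log2 difference 0.18, exact two-sided permutation p = 0.1). With the Hsp90aa1 copies added as well the difference was 0.16. The data therefore give no direction for this ratio. The Hsf1 to Hspa8 ratio was 6.82% ± 2.68 and 5.69% ± 1.35 (exact two-sided permutation p = 0.7), and 3.38% ± 1.41 and 4.24% ± 0.900 with the copies (p = 0.4).

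**Figure D3:**
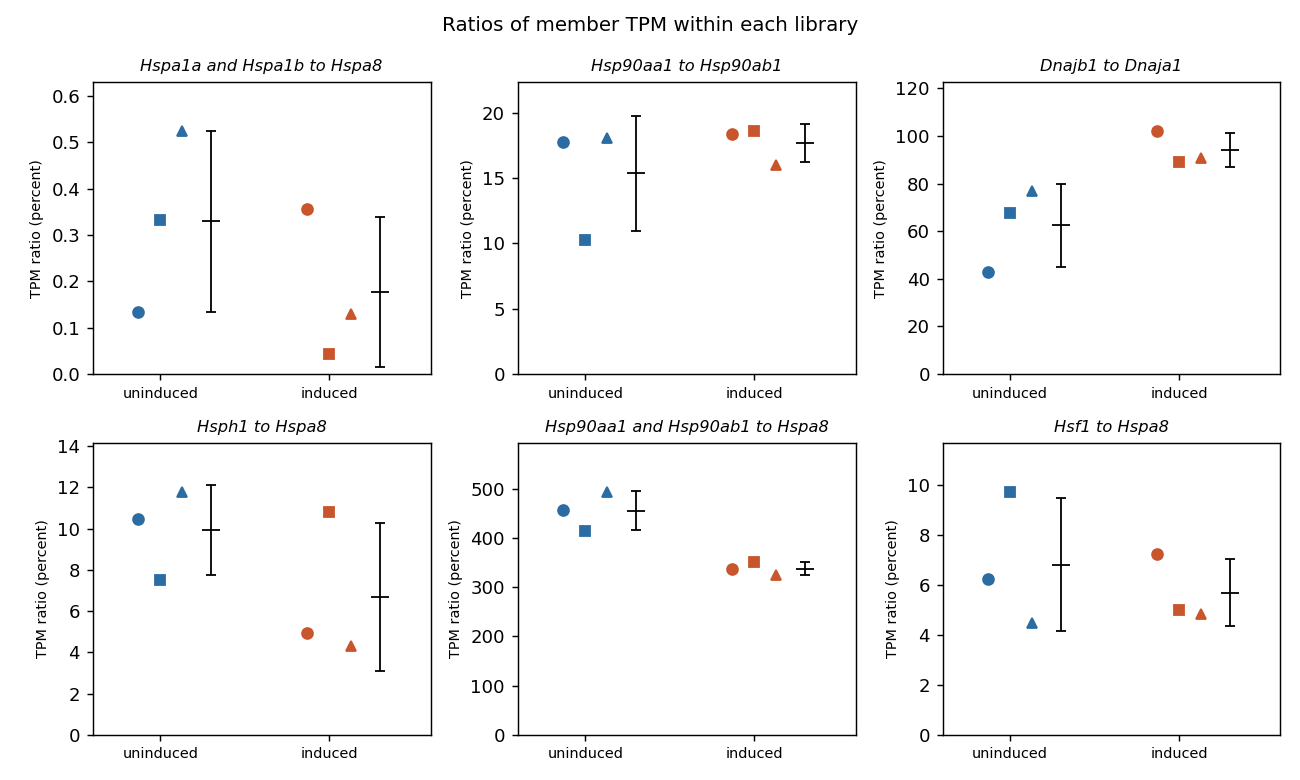
Ratios of member TPM within each library, in percent (vertical axes from 0), for the 6 ratios tested, in uninduced (blue) and induced (orange) libraries; symbols are replicates 1 to 3 and bars the mean ± SD. The groups are apart for Dnajb1 to Dnaja1, where the induced libraries are higher, and for both HSP90 genes to Hspa8, where they are lower; this second direction turns (log2 difference 0.18) when the Hspa8 pseudogene copies, not plotted here, are added.

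**Figure D4:**
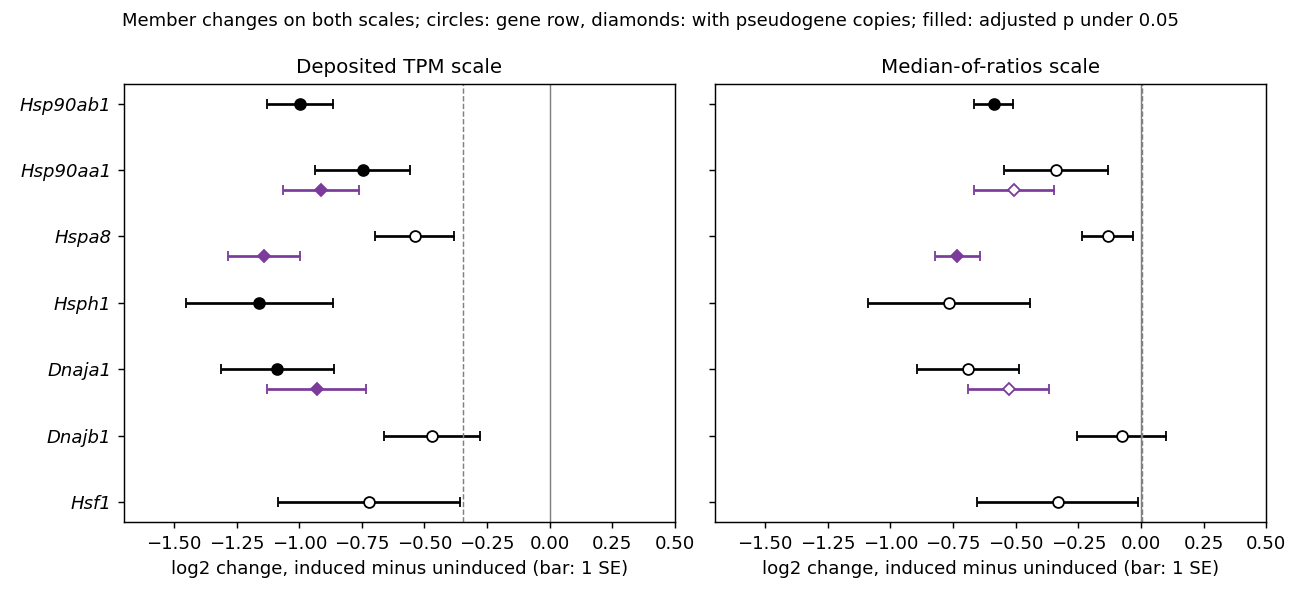
Log2 change (induced minus uninduced, bars 1 SE) of the 7 tested members on the deposited scale (left) and after median-of-ratios scaling (right); circles are the gene rows, diamonds the rows with pseudogene copies added, filled symbols have an adjusted p under 0.05, and the dashed line is the median of all tested genes. Hsp90ab1 is filled in both panels, and Hspa8 is filled in either panel only with its copies added.

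The summed TPM of the 10 members was lower in every induced than in every uninduced library. It was 2304 ± 219 in the uninduced and 1246 ± 67.9 in the induced group, which was 0.775% ± 0.0331 and 0.569% ± 0.0149 of nuclear protein-coding TPM (SD, n = 3 each). Hsp90ab1 alone made up 66.3% ± 1.78 of the sum in the uninduced and 61.3% ± 0.719 in the induced libraries, while Hspa8 made up 16.9% ± 1.22 and 21.4% ± 0.773. These shares also turn on the copies: with those of Hspa8 added, Hspa8 made up 29.2% ± 1.30 and 26.7% ± 0.732 of the sum, and Hsp90ab1 56.5% ± 1.38 and 57.2% ± 0.980. Among nuclear protein-coding genes of a library, ranked by TPM, Hsp90ab1 was ranked 9, 12 and 8 in the uninduced and 23, 19 and 20 in the induced libraries. Hspa8, on its row without the copies, had a median rank of 81 and 91, and Dnajb1 of 2036 and 2001. Hsph1 had a median rank of 1315 and 3889, with induced replicate 2 at 1519, and Dnaja1 of 1073 and 1828. These ranks do not depend on the scale, and none was computed with copies added.

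HSP90 works with co-chaperones that bring clients and set the pace of its cycle. Of 20 HSP90 co-chaperone genes, 8 fell and none rose on the deposited scale, and 5 fell and none rose after scaling, beside 10.2% and 3.1% of all tested genes called lower. The 5 were Stip1, Fkbp4, Ppid, Nudc and Aarsd1. Stip1, whose product HOP hands clients from HSP70 to HSP90, fell from 78.0 ± 13.5 to 27.9 ± 6.05 TPM (log2 change -1.46, adjusted p = 0.00490, and -1.06 after scaling, adjusted p = 0.0122). Fkbp4, an immunophilin of steroid receptor complexes, fell from 95.7 ± 11.2 to 39.5 ± 5.56 TPM (log2 change -1.26, and -0.86 after scaling, adjusted p = 0.0240). Ppid, a cyclophilin of the same complexes, fell from 45.7 ± 5.83 to 19.2 ± 1.87 TPM. Nudc, a client-handling partner also used in mitosis, fell from 176 ± 28.2 to 86.4 ± 8.78 TPM. Aarsd1 was at 21.0, 32.9 and 28.5 TPM without induction and 1.56, 5.45 and 4.55 TPM with it, the largest change among them (log2 -2.64, adjusted p = 0.00400, and -2.28 after scaling, adjusted p = 0.0139). Ahsa1, which speeds the HSP90 ATPase, and Ptges3, the co-chaperone p23, were called only on the deposited scale, as was Cacybp.

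The TRiC chaperonin, which folds actin and tubulin, and prefoldin, which feeds it, were listed together. Of the 14 genes 9 fell on the deposited scale and none rose. After scaling 5 fell (Cct2, Cct3, Cct6a, Cct8 and Tcp1, all TRiC subunits) and 1 rose, the prefoldin subunit Pfdn5. Over all tested genes 10.2% were called lower and 1.29% higher on the deposited scale, and 3.1% and 2.88% after scaling. Cct6a fell from 162 ± 41.4 to 63.4 ± 5.58 TPM (log2 change -1.32, adjusted p = 0.00450, and -0.91 after scaling, adjusted p = 0.0257). Cct5, Cct7 and Vbp1, the last a prefoldin subunit, were among those called only on the deposited scale. Pfdn5, named after its values were seen, was at 112 ± 13.4 and 149 ± 21.9 TPM, with a change of 0.40 on the deposited scale (adjusted p = 0.161) and 0.81 after scaling (adjusted p = 0.00808).

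The endoplasmic reticulum and the mitochondria have their own HSP70 and HSP90. Of 4 such genes all 4 fell on the deposited scale, and Hspa5 and Hsp90b1, the HSP70 and HSP90 of the endoplasmic reticulum, also after scaling, where 10.2% and 3.1% of all tested genes were called lower. Hspa5 was at 207, 238 and 167 TPM without induction and 91.6, 84.0 and 89.7 TPM with it (log2 change -1.18, adjusted p = 0.00400, and -0.78 after scaling, adjusted p = 0.0102). The mitochondrial Hspa9 and Trap1 changed by -0.89 each on the deposited scale (adjusted p = 0.0163 and 0.0226) and missed after scaling.

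Of 15 genes outside the members known as HSF1 targets, 13 were tested, and some of these also stand in the lists above. On the deposited scale 6 fell and after scaling 4 (Stip1, Fkbp4, Hspd1 and Hspe1), and none rose. Among the 6, Stip1, Fkbp4, Ahsa1 and Cacybp were already counted as HSP90 co-chaperones. The share called lower over all tested genes was 10.2% on the deposited scale and 3.1% after scaling. Hspd1 and Hspe1, the mitochondrial chaperonin and its lid, fell from 111 ± 30.8 to 41.5 ± 1.30 TPM and from 90.5 ± 19.4 to 35.3 ± 1.98 TPM. Ubb, a ubiquitin gene also in this list, was at 367 ± 74.3 and 362 ± 30.4 TPM, with a log2 change of -0.01 on the deposited scale (adjusted p = 0.986) and 0.40 after scaling (adjusted p = 0.0763). Bag3, an HSF1 target and HSP70 exchange factor, was at 15.6 ± 4.27 and 9.18 ± 1.77 TPM (log2 change -0.68, adjusted p = 0.157, and -0.31 after scaling, adjusted p = 0.529). Ubb and Bag3 were chosen after their values were seen. None of 5 tested heat shock factors and regulators and neither of 2 tested small heat shock protein genes was called on either scale (0 at an unadjusted p under 0.05). Over the 9 lists together, which hold 92 genes, 27 of 80 tested genes fell and none rose on the deposited scale, and 14 fell and 1 rose after scaling. Of all tested genes 10.2% fell and 1.29% rose on the deposited scale, and 3.1% fell and 2.88% rose after scaling. The lists were chosen with earlier results of these data known, so this comparison is a description only. The scaled count of 15 dropped to between 3 and 6 with any 1 library left out, and the deposited count to between 13 and 23. Their median change was -0.65 (-0.27 after scaling), beside -0.35 (0.0032) for all genes.

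**Figure D5:**
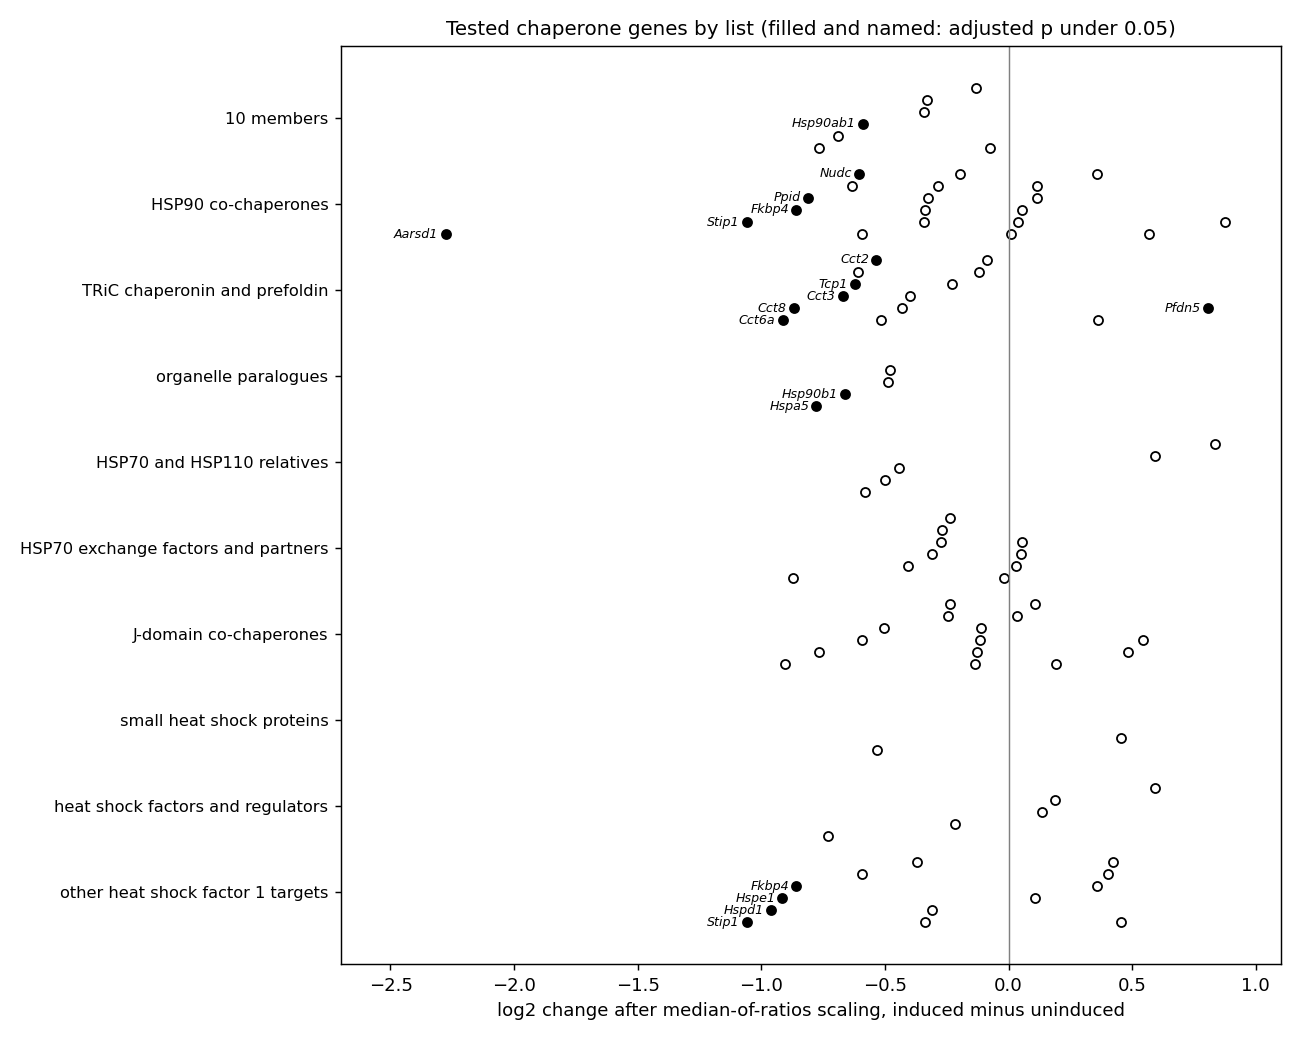
Log2 change after median-of-ratios scaling (horizontal axis) of each tested gene in the members and the 9 chaperone lists (rows; vertical spread within a row only separates points); filled, named points have an adjusted p under 0.05. Named points lie in the HSP90 co-chaperones, TRiC, organelle paralogues, HSF1 targets and members, all below 0 but Pfdn5, and Stip1 and Fkbp4 stand in 2 lists.

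Other transcripts moved between the same libraries, and their part in the chaperone values was not tested. Of 19 cell cycle genes tested 18 fell on the deposited scale and 16 after scaling, and none rose, beside 10.2% and 3.1% of all tested genes called lower. Their summed level was 756 to 898 TPM without induction and 174 to 226 TPM with it. Mcm6, a subunit of the replicative helicase, fell from 121 ± 16.7 to 30.5 ± 5.83 TPM, Mcm3 from 109 ± 16.8 to 30.4 ± 3.96 TPM and Pcna, the replication clamp, from 111 ± 18.1 to 40.8 ± 10.2 TPM. Immediate early genes, which can respond to cell handling, summed to 2286 to 2839 TPM and 1715 to 1893 TPM. Of 18 tested, 7 fell and 1 rose on the deposited scale, and 3 fell and 4 rose after scaling, where 1.29% and 2.88% of all tested genes were called higher. Jun fell from 808 ± 105 to 439 ± 19.7 TPM on both scales' tests, Fos (551 ± 75.0 to 344 ± 32.2 TPM) only on the deposited one, and Dusp1 (180 ± 10.5 and 208 ± 24.8 TPM) rose only after scaling.

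The sorted cells carried stem cell markers: all 10 were tested, with sums of 481 to 673 TPM without induction and 605 to 647 TPM with it. On the deposited scale 4 rose and 2 fell, and after scaling 5 rose and 1 fell. For these and the following markers, 10.2% of all tested genes were called lower and 1.29% higher on the deposited scale. After scaling the shares were 3.1% and 2.88%. Erythroid markers summed to 54.6 to 60.6 TPM and 402 to 467 TPM, and 6 of 8 tested (of 9) rose on both scales. Most of the induced sum came from Hba-a1, Hba-a2, Hbb-bs and Hbb-bt, at means of 98.5, 54.6, 177 and 90.6 TPM. Epor went the other way, from 3.37 ± 1.24 to 0.485 ± 0.839 TPM, with the groups apart on both scales. Its log2 change was -1.65 (limma unadjusted p = 0.00892, adjusted p = 0.0638), and -1.47 after scaling (adjusted p = 0.138). Car1 was at 0 in all but 1 library. Myeloid markers summed to 234 to 284 TPM in both groups, with 1 of 6 tested rising on the deposited scale and 2 after scaling. None was called lower, while at an unadjusted p under 0.05 (limma) 3 were lower and 2 higher on the deposited scale. After scaling 0 were lower and 2 higher at that threshold. Of 10 lymphoid markers 9 were listed at 0 in all libraries, and the tenth, Cd79b, was at 3.11 to 9.86 TPM. Megakaryocyte markers summed to 102 to 138 TPM and 120 to 130 TPM, with 2 of 6 rising on both scales and 1 falling on the deposited one. Of 6 stromal and endothelial markers 2 were tested and 2 were at 0 throughout, with sums of 23.2 to 33.4 TPM and 38.1 to 46.9 TPM. Neither was called on the deposited scale (1 higher at an unadjusted p under 0.05), and 1, Pecam1, rose after scaling (19.4 ± 5.10 and 34.1 ± 4.94 TPM as deposited, adjusted p = 0.0320 on the scaled data).

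The genes most like the summed level of the set across the 6 libraries were Rpl4, Dock11, H2bc12, mt-Co1 and Mcm7. Hsp90ab1 made up 66.3% of that sum in the uninduced and 61.3% in the induced libraries, so the likeness is mostly to this member. They had the highest Pearson correlation of log2(TPM + 1) with the log2 summed TPM of the 10 members, among the 6268 genes that averaged 10 TPM or more. Rpl4 led, at 1353, 1404 and 1138 TPM without induction and 671, 663 and 733 TPM with it (r = 0.9996). The other 4 were at r = 0.998. All 6 libraries fall in 2 groups, share the TPM total, and give these values as a description only.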

How the data were processed

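The authors deposited 1 table of TPM values with a column per library, per the file headers, and a GC content column in percent, which was deposited per gene and not used. The tools bcl2fastq, HISAT2, StringTie and DESeq2 and the build GRCm38 come from the submitters' processing notes, without versions or roles. The annotation release and strand setting are not given in the sources used here. Rows (60496, of which 5025 repeat an ID) were summed per gene ID. Tests used limma 3.58.1 in R 4.3.3 on log2(TPM + 1), which understates changes of low genes, with a variance trend, two-sided, on genes averaging 1 TPM or more, adjusted by Benjamini-Hochberg over all tested genes. Ratios used exact permutation tests. Of the 7 ratios planned 1 had zeros, so adjustment was over 6. Depth is unknown.

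All 10 members are described. From the 9 chaperone lists, genes called on both scales were to be named, with up to 3 others per list by largest change; from the immediate early and cell cycle lists, the 3 with the highest mean TPM. Members and lists were chosen with earlier results of these data known. Locations and shared 100-base stretches came from GENCODE M21 on GRCm38, and promoters from RefSeq on GRCm38.p6.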

Additional observations from a re-analysis of the deposited data

How the results depend on the processing

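Hsp90ab1 fell under every alternative run. On the deposited scale 4 members were called; the count was 2 without the expression filter, 1 after median-of-ratios scaling, 1 after quantile normalization, 1 after rescaling to nuclear protein-coding genes, 1 without the variance trend and 1 to 3 with each library dropped in turn. Over all genes 1549 were called on the deposited scale (590 of them also after scaling), against 752 without the filter, 806 after median-of-ratios scaling, 814 after quantile normalization, 886 after protein-coding rescaling, 767 without the variance trend and 573 to 1198 with a library left out. Of the wider chaperone genes 27 were called, against 15 after median-of-ratios scaling or quantile normalization, 9 without the trend and 13 to 23 with a library left out. After scaling 1 member was called, against 2 with copies added and 1 to 2 with a library left out, and 15 wider genes, against 3 to 6 with a library left out. These scaled alternatives were added after seeing the data.

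Dnaja1 missed the threshold after every rescaling, without the variance trend, and without uninduced replicate 1, induced replicate 1 or induced replicate 2. Dnajb1 after scaling turned to 0.018 without uninduced replicate 3 (range -0.13 to 0.018 with each library left out). Without uninduced replicate 2 the log2 difference of the Hsp90aa1 to Hsp90ab1 ratio went from 0.25 to -0.023, and that of Hsf1 to Hspa8 from -0.21 to 0.080; over all libraries left out they ranged from -0.023 to 0.39 and from -0.48 to 0.080. With copies added to Hspa8 alone, and to all 3 members with copies, both HSP90 genes to Hspa8 went from -0.43 to 0.18 and 0.16. In either case Hsph1 to Hspa8 went from -0.67 to -0.069 and Hsf1 to Hspa8 to 0.39. The higher Hspa8 denominator of the uninduced libraries makes these last shifts; the cause of the others was not tested.

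Deviations of same-numbered libraries correlated at 0.0215, -0.0152 and 0.0172. With 3 libraries per group these values cannot settle whether same-numbered libraries share an origin, and the labels do not say. With the replicate block 902 genes were called (882 of them also without it), with 2 members (Hsp90ab1 and Dnaja1; Hsph1 at adjusted p = 0.0611 and Hsp90aa1 at 0.0618) and, after scaling, 7 wider chaperone genes. Libraries 1 and 3, but not 2, correlated best with their own number.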
